A study of Mus musculus with 12 samples.

Results

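The 42 genes described here build and watch the protein folding system of the endoplasmic reticulum (ER). They were chosen by name, as genes of ER protein folding and of the unfolded protein response, and all 42 were found among the 27179 genes of the table. By role they are 7 stress sensors and transcription factors, 3 targets of the factors ATF4 and CHOP, 11 chaperones and cofactors, 6 disulfide isomerases, 9 genes of the translocon and signal peptidase, and 6 genes of ER-associated degradation. RNA was sequenced from full-thickness pieces of mouse colon, in a study that used diphtheria toxin to ablate enteric neurons. The control group (n = 5 libraries) had the genotype R26-iDTR without Cre, that is, a toxin receptor gene at the Rosa26 locus that stays silent. The ablated group (n = 7 libraries) was BAF53b-Cre::R26-iDTR, where Cre is driven by the promoter of a neuronal chromatin remodelling gene and switches the receptor on. Both groups underwent laparotomy and both received 4 µL of toxin at 0.33 ng/µL with 10% India ink, injected into the muscle layer of the colon; the ink marked the piece to be cut out. The labels used here give no age, no sex and no interval between toxin and dissection. They do not say that each library is a separate animal, and the p-values below speak only for the spread among these 12 libraries, which may be technical.

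As background, proteins that are secreted or sit in a membrane enter the ER through the SEC61 channel, lose their signal peptide, are folded by chaperones and joined by disulfide bonds, and are sent for degradation if folding fails. When unfolded protein builds up, the sensors IRE1, PERK and ATF6 act through the transcription factors XBP1, ATF4, CHOP and a cut form of ATF6, which raise the genes of folding and degradation; this is the unfolded protein response. In the colon the heaviest secretory work is done by goblet cells, which make mucus, and by plasma cells, which make antibody, so both are known for high levels of these genes.

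Levels are in TPM, a share of each library's transcripts corrected for transcript length. A log2 fold change is the difference of ablated minus control on log2(TPM + 0.5), from limma fitted over the 16164 genes that reached 0.5 TPM in 5 or more libraries. A gene is said to have risen or fallen where its p was under 0.05 after Benjamini-Hochberg adjustment over that whole set of genes. Depth was 13.4 to 26.9 M reads per library as recovered from the TPM values. Of 15 marker genes of neurons, some of them of neuronal subtypes, 13 fell and none rose, which checks the labels. Ablated 1 was the shallowest library, and genes of the mitochondrial genome held 25.6% of its TPM, against 5.20 to 14.2% in the other 11 libraries. In pieces of whole tissue, fewer cells of a type and less RNA per cell cannot be told apart.

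All 42 genes passed the filter on low values, and none of them rose or fell. Over all genes tested, 0.421% rose and 1.01% fell. The smallest adjusted p among the 42 was 0.112, for Ern2. With an unadjusted p under 0.05 there were 2 genes of the 42, Ern2 and Eif2ak3, which is 4.76%, against 11.8% of all genes tested. In none of the 42 did the groups fail to overlap; over all genes tested, every ablated library lay above every control in 1.33% and below in 1.55%. The log2 fold changes were positive for 19 and negative for 23, with a median of -0.02, beside a median of 0.03 and 55.7% positive over all genes tested. For 39 of the 42 (92.9%) the 95% interval lay within 1 log2 unit of 0 on both sides, beside 84.5% of all genes tested; the other 3 were Ern1, P4hb and Spcs1. Summed over the 42 genes, the level was 5451 to 7315 TPM in control, with a median of 6639, and 4745 to 7910 TPM in ablated, with a median of 7533. The sum amounted to 0.662 ± 0.0723% of all TPM in control (SD, n = 5) and 0.707 ± 0.110% in ablated (SD, n = 7), with ranges that overlap. Agr2 alone carried much of that sum. Without Agr2 the other 41 genes summed to 4604 ± 513 TPM in control (SD, n = 5) and 4536 ± 805 TPM in ablated (SD, n = 7), whose ranges overlap as well.

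**Figure D1:**
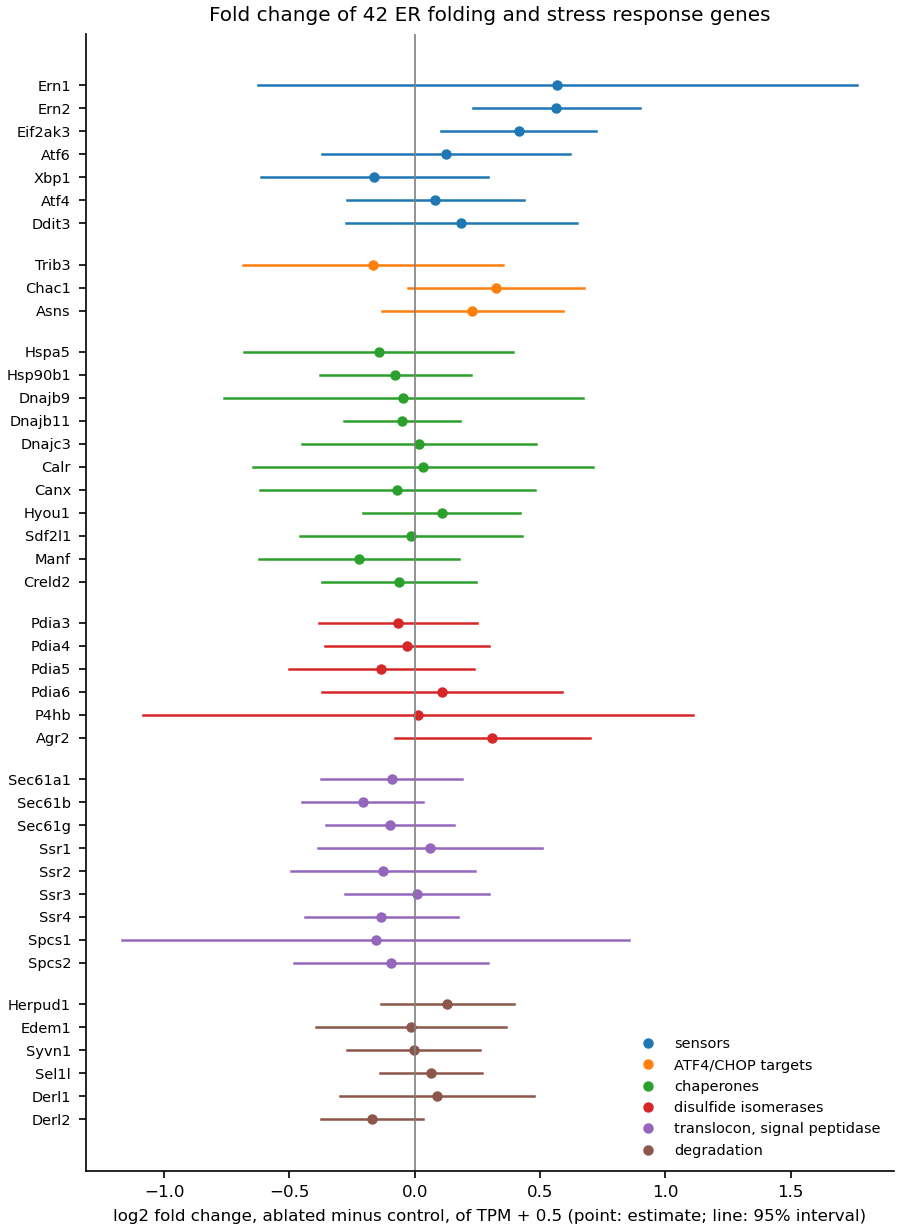
Log2 fold change of each of the 42 genes, ablated minus control, on log2(TPM + 0.5). Points are estimates from limma, lines are 95% intervals and colours are roles; the intervals of Ern2 and Eif2ak3 alone stay to the right of 0, and those of Ern1, P4hb and Spcs1 are the widest.

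Among the stress sensors and their transcription factors, 6 of 7 log2 fold changes were positive, with a median of 0.19, and none passed the test. Ern2 encodes IRE1β, the form of the sensor found in mucus-secreting epithelium (chromosome 7, 122169893 to 122186207, minus strand, mm10). Its level was 45.5, 56.3, 47.7, 53.4 and 59.7 TPM in the 5 control libraries, and in ablated the lowest was 47.7, the median 82.9 and the highest 91.8 TPM. Ablated 5 alone lay among the controls, and the other 6 ablated libraries lay above all of them. The means were 52.5 ± 5.91 TPM in control (SD, n = 5) and 79.1 ± 15.2 TPM in ablated (SD, n = 7), a log2 fold change of 0.57 (95% interval 0.23 to 0.90; limma adjusted p = 0.112). Without ablated 5 Ern2 passed the test, at 0.68 with a limma adjusted p of 0.00441, where 0.504% of all genes tested rose. It also passed with an epithelial score as a covariate, at 0.61 with a limma adjusted p of 0.0351, where 1.97% of all genes rose. It did not pass under the other 25 of 27 alternatives, where its limma adjusted p reached 0.491.

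Ern1, which encodes IRE1α, the form present in most cells (chromosome 11, 106394650 to 106487852, minus strand), was at 4.46, 2.08, 3.26, 5.41 and 4.48 TPM in control. In ablated its lowest level was 1.14, the median 7.09 and the highest 17.7 TPM. The ablated libraries thus ran from below every control to above every control, a range of 15.6-fold, beside 2.59-fold in control. The means were 3.94 ± 1.29 TPM (SD, n = 5) and 8.15 ± 6.39 TPM (SD, n = 7), and the log2 fold change of 0.57 had a 95% interval of -0.63 to 1.77 (limma adjusted p = 0.790). The estimate matched that of Ern2, and its interval was several times as wide. Ern1, Eif2ak3, Ddit3, Dnajb9, Calr, P4hb and Spcs1 are described at length because of their values, and were chosen after these were seen.

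The ratio of Ern2 to Ern1 sets the epithelial form of IRE1 against the general one within a library, so that scaling between libraries does not move the plain ratio. Without an added constant the ratio was 9.89 to 27.0 in control and 3.65 to 75.3 in ablated. The test added 0.5 TPM to both genes before log2, which lowers the ratio where Ern1 was low, as in ablated 1 (log2 value 5.72). The difference of the mean log2 value was -0.00 with an exact permutation p of 0.996 (two-sided, all 792 assignments of 5 and 7 libraries, smallest possible p 0.00126). The group means lay close together while the ablated libraries spread on both sides of the controls, with the highest ratio in ablated 1 and the lowest in ablated 5.

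Eif2ak3 encodes PERK, the kinase that slows translation under ER stress (chromosome 6, 70844515 to 70905245, plus strand). It stood at 13.2, 10.3, 9.68, 13.3 and 12.9 TPM in control, and at 10.9, 16.3 and 18.9 TPM as the lowest, median and highest of ablated. Ablated 1 was the low one, and the other 6 lay above all controls. The log2 fold change was 0.42 (95% interval 0.11 to 0.73) and did not pass (limma adjusted p = 0.229), from means of 11.9 ± 1.74 TPM (SD, n = 5) and 16.1 ± 2.64 TPM (SD, n = 7). It passed under 3 of 27 alternatives, over which its limma adjusted p reached 0.589. Without ablated 1 it was 0.50 (limma adjusted p = 0.0395), where 0.798% of all genes rose; with the mitochondrial share as a covariate it was 0.42 (limma adjusted p = 0.0238), where 2.07% rose; and with a weight per library it was 0.53 (limma adjusted p = 0.0176), where 4.05% rose. The predicted gene Gm43292 on the opposite strand covers 8.05% of the exonic bases of Eif2ak3, and whether the counting used strand is not stated in the sources used here.

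None of the factors below the sensors passed the test. Xbp1, whose RNA is spliced by IRE1, was at 222, 202, 162, 243 and 198 TPM in control, and its ablated libraries had a lowest level of 105, a median of 208 and a highest of 262 TPM. The ablated range holds the whole control range, and the log2 fold change was -0.16 (95% interval -0.62 to 0.29; limma adjusted p = 0.872). Values per gene cannot show how much of the Xbp1 RNA was spliced. Atf4, the factor translated when PERK is active, was at 108, 119.9, 125, 120.1 and 148 TPM in control, and in ablated at 75.9 (ablated 1), with a median of 142 and a highest of 157 TPM. Apart from ablated 1 all ablated libraries lay between 134 and 157 TPM, inside or just above the control range, and the log2 fold change was 0.08 (95% interval -0.27 to 0.44; limma adjusted p = 0.930). Atf6, the sensor that is itself cut to a transcription factor, was at 11.7 ± 1.47 TPM (SD, n = 5) and 13.5 ± 4.83 TPM (SD, n = 7). Ddit3, which encodes CHOP, the factor tied to cell death under lasting stress, was at 38.8, 48.2, 46.7, 51.3 and 50.9 TPM in control, and at 34.8, 56.9 and 99.5 TPM as the lowest, median and highest of ablated. Its highest value was in ablated 1, where Atf4 and Xbp1 were at their lowest. The log2 fold change of Ddit3 was 0.19 (95% interval -0.27 to 0.65; limma adjusted p = 0.839), and other genes share 10.9% of its exonic bases.

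**Figure D2:**
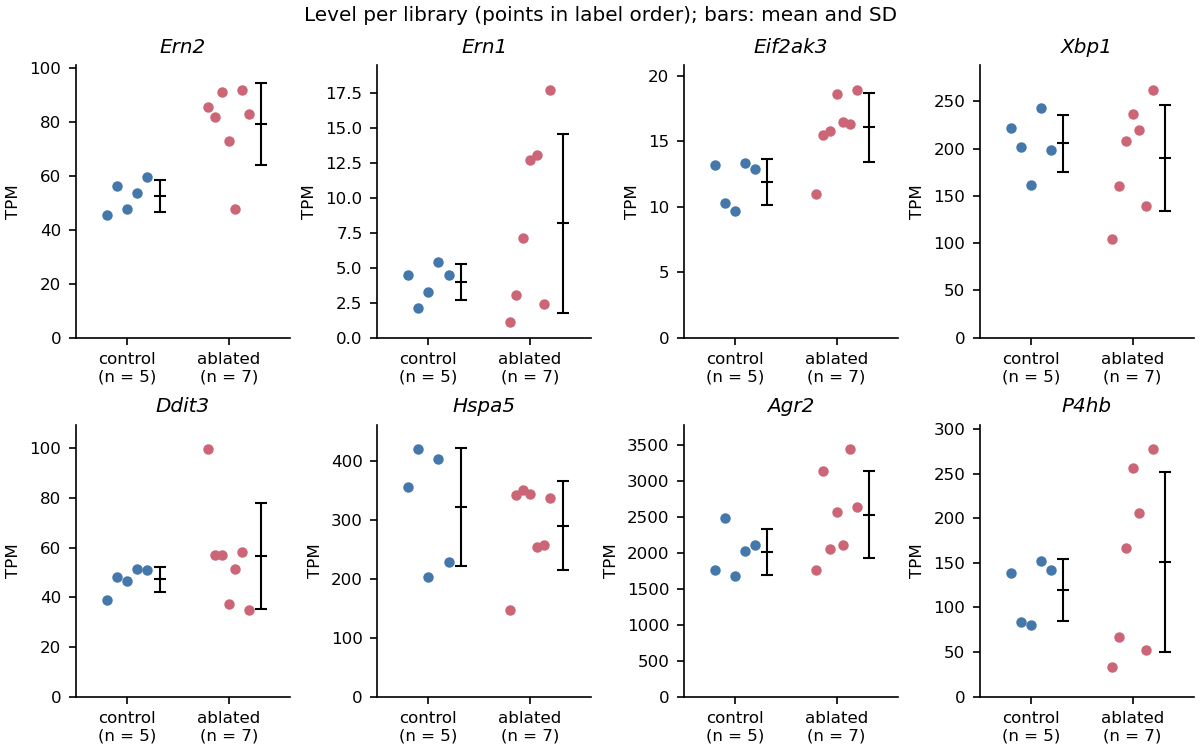
TPM of 8 genes in each library, from 0, with control (n = 5) in blue and ablated (n = 7) in red; points run in label order from left to right, and bars give the mean and SD. For Ern2 and Eif2ak3 6 of 7 ablated libraries sit above all controls, while Ern1, Xbp1 and P4hb spread on both sides of the controls.

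The 3 targets of ATF4 and CHOP did not pass. Chac1, a glutathione-degrading enzyme that is a sensitive target of this arm, was low, at 1.18, 1.09, 0.729, 1.32 and 1.21 TPM in control, with a lowest level of 0.941, a median of 1.56 and a highest of 2.09 TPM in ablated. All ablated libraries other than ablated 7 lay above the controls, on 15 to 47 reads per library, and the log2 fold change was 0.32 (95% interval -0.03 to 0.68; limma adjusted p = 0.476). Asns, asparagine synthetase, was at 15.1, 18.7, 15.6, 19.2 and 21.4 TPM in control and at 15.6, 20.6 and 29.9 TPM as the lowest, median and highest of ablated. The 2 highest ablated libraries, ablated 4 and ablated 7, lay above every control and the other 5 among them, and the log2 fold change was 0.23 (95% interval -0.13 to 0.59; limma adjusted p = 0.669). Trib3, a pseudokinase that feeds back on ATF4, had means of 1.14 ± 0.381 TPM (SD, n = 5) and 0.997 ± 0.471 TPM (SD, n = 7) on 10 to 43 reads per library.

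Promoter sequences are shown for some of the folding, degradation and ATF4 target genes, since they share the elements through which the stress response is known to act. The promoters are those of RefSeq on GRCm38.p6 and were found for 35 of the 42 genes, and the 250 bases before the start were searched on both strands. The ER stress response element, searched as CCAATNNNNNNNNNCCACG, was found in 8 of the 35 genes (Hspa5, Hsp90b1, Dnajc3, Calr, Canx, Creld2, Pdia6 and Syvn1) and in 35 of 27025 genes with a promoter (0.130%). Hspa5, Hsp90b1 and Calr are textbook examples of genes with this element. In the lines below the match is in capitals; it reads in this sense for Hspa5, Hsp90b1, Pdia6 and Syvn1, and on the other strand for Calr and Creld2.
Hspa5: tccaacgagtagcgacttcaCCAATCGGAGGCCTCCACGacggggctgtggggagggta
Hsp90b1: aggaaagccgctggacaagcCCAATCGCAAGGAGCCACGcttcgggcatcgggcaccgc
Calr: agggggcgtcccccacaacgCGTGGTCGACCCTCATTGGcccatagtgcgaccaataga
Pdia6: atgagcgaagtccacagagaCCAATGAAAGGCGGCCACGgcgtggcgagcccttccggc
Creld2: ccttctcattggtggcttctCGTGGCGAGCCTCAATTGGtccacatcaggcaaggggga
Syvn1: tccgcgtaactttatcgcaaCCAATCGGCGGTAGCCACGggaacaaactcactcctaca
The Hspa5 stretch is chr2:34772005-34772063 on the plus strand, with the match 65 to 47 bases before the start. The Hsp90b1 stretch is chr10:86705618-86705676 on the minus strand, and a second match lies nearer its start. The others are Calr at chr8:84847055-84847113 on the minus strand, Pdia6 at chr12:17266471-17266529 on the plus strand, Creld2 at chr15:88819500-88819558 on the plus strand and Syvn1 at chr19:6046512-6046570 on the plus strand.

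Other elements of the response were searched in the same way. The element ERSE-II, searched as ATTGGNCCACG, was found in Herpud1 and in 10 of all 27025 genes (0.0370%). The element bound by ATF4 with a C/EBP partner, searched as TGATGNAAN, was found in Chac1, Asns and Herpud1, and in 1052 of all genes (3.89%). The XBP1 element searched as TGACGTGG was in none of the 35 and in 163 of all genes (0.603%), which says only that these letters are not in the window. The stretches are shown with the match in capitals, first the ERSE-II match of Herpud1 and then the 3 matches of the ATF4 element, which lie on the other strand for Chac1 and Herpud1.
Herpud1: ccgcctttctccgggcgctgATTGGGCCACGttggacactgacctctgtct
Chac1: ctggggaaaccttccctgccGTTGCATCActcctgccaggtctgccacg
Asns: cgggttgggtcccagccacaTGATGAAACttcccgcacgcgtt
Herpud1: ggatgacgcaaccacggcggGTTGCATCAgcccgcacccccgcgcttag
They lie, in that order, at chr8:94386357-94386407 (Herpud1, plus strand), chr2:119351028-119351076 (Chac1, plus strand), chr6:7693210-7693252 (Asns, minus strand) and chr8:94386296-94386344 (Herpud1, plus strand). A match is a description of the letters, not evidence of binding.

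The 11 chaperones and cofactors had 3 positive and 8 negative log2 fold changes, with a median of -0.05, and none passed. Hspa5 encodes BiP, the main ER chaperone of the HSP70 family and the usual gauge of the response. It was at 357, 420.2, 203, 404 and 229 TPM in control, and in ablated at a lowest of 147, a median of 337 and a highest of 352 TPM. The ablated libraries lay within or below the control range, with ablated 1 the lowest, and the log2 fold change was -0.14 (95% interval -0.68 to 0.39; limma adjusted p = 0.915). Hsp90b1, the ER form of HSP90, was at 513, 536, 379, 466 and 345 TPM in control and at 322, 418 and 514 TPM as the lowest, median and highest of ablated, a log2 fold change of -0.08 (95% interval -0.38 to 0.22; limma adjusted p = 0.921). Manf, a secreted cofactor of BiP, had the smallest p of the group. It was at 105, 122, 77.1, 112 and 90.6 TPM in control, and at a lowest of 49.7, a median of 85.5 and a highest of 111 TPM in ablated, and its log2 fold change was -0.22 (95% interval -0.62 to 0.18; limma adjusted p = 0.733).

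For the rest of the chaperones the group means lay close together, while the spread within ablated differed from gene to gene. Dnajb11, a BiP cofactor, was at 72.1 ± 9.32 TPM (SD, n = 5) and 69.4 ± 6.93 TPM (SD, n = 7), with a highest-to-lowest ratio in ablated of 1.28. Dnajb9, a cofactor that holds IRE1 in check, was at 37.9 ± 4.68 TPM (SD, n = 5) and 40.8 ± 17.7 TPM (SD, n = 7), with a ratio of 5.10, from 12.1 TPM in ablated 1 to 61.7 TPM in ablated 5. Calr, the lectin chaperone calreticulin, was at 205, 204, 135, 286 and 219 TPM in control, and in ablated it ran from 82.2 TPM in ablated 1 to 327 TPM in ablated 3, a ratio of 3.97, with a log2 fold change of 0.03. Canx, its membrane-bound relative calnexin, had means of 113 ± 23.5 TPM (SD, n = 5) and 113 ± 42.1 TPM (SD, n = 7). Hyou1, a nucleotide exchange factor of BiP, stood at 30.5 ± 6.81 and 32.3 ± 3.46 TPM, and Sdf2l1, a partner of the ER J-proteins, at 53.4 ± 14.7 and 52.8 ± 12.8 TPM (SD, n = 5 and n = 7). Dnajc3, an inhibitor of PERK, and Creld2, a stress-induced isomerase, had log2 fold changes of 0.02 and -0.06. The 8 genes with the exact ER stress response element ran from -0.14 to 0.11, with a median of -0.03.

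Agr2 was by far the most abundant of the 42 genes. It encodes an isomerase of the disulfide isomerase family that goblet cells need to make the mucin MUC2 (chromosome 12, 35992907 to 36004087, plus strand). Its level was 1766, 2493, 1677, 2030.2 and 2111 TPM in control, and in ablated the lowest was 1767, the median 2572 and the highest 3445 TPM. In 4 of the 7 ablated libraries it lay above all controls and in the other 3 among them. The means were 2015 ± 322 TPM (SD, n = 5) and 2535 ± 606 TPM (SD, n = 7), a log2 fold change of 0.31 (95% interval -0.08 to 0.70; limma adjusted p = 0.565). Pdia3, the isomerase that works with calreticulin on glycoproteins, was next in this group, at 570.4, 543, 384, 465 and 429.9 TPM in control and at 322, 467 and 549.8 TPM as the lowest, median and highest of ablated. Ablated 1 lay below every control and the other ablated libraries among them, with a log2 fold change of -0.07 (95% interval -0.38 to 0.25; limma adjusted p = 0.942).

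P4hb, the founding protein disulfide isomerase and a subunit of collagen prolyl hydroxylase (chromosome 11, 120560298 to 120573253, minus strand), spread the most of the isomerases. It was at 139, 84.1, 80.2, 152 and 142 TPM in control. The 7 ablated libraries ran from 33.4 TPM in ablated 1, 52.0 in ablated 6 and 67.2 in ablated 2 to 166 in ablated 3, 205 in ablated 5, 256 in ablated 4 and 277 TPM in ablated 7. Thus 3 ablated libraries lay below every control and 4 above every control. The log2 fold change was 0.01 with a 95% interval of -1.08 to 1.11 (limma adjusted p = 0.998), from means of 119 ± 34.4 TPM (SD, n = 5) and 151 ± 101 TPM (SD, n = 7). The ratio of Agr2 to P4hb, without an added constant, was 12.7 to 29.6 in control and 9.51 to 66.3 in ablated. With 0.5 TPM added to both genes the difference in mean log2 was 0.30, with an exact permutation p of 0.630 (two-sided, 0.996 adjusted over both ratios). Pdia4, Pdia5 and Pdia6, relatives of P4hb with several thioredoxin-like domains, had log2 fold changes of -0.03, -0.13 and 0.11. The 6 isomerases were 3 positive and 3 negative, with a median of -0.01.

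The 9 genes of the translocon and signal peptidase had 2 positive and 7 negative log2 fold changes, with a median of -0.10, and none passed. Sec61b, a small subunit of the channel, had the smallest p of them. It was at 388, 395, 339.8, 369.6 and 427 TPM in control and at 248, 347 and 378 TPM as the lowest, median and highest of ablated. Ablated 1 lay far below the rest and the other ablated libraries lay in the lower part of the control range or just under it, with a log2 fold change of -0.21 (95% interval -0.45 to 0.03; limma adjusted p = 0.522). Ssr4, a subunit of the translocon-associated protein complex, was at 273, 299.5, 277, 353 and 334 TPM in control and at 188, 291 and 351 TPM as the lowest, median and highest of ablated, a log2 fold change of -0.13 (95% interval -0.44 to 0.17; limma adjusted p = 0.814). The other channel subunits Sec61a1 and Sec61g had log2 fold changes of -0.09 and -0.10, and Ssr1, Ssr2 and Ssr3 of 0.06, -0.13 and 0.01. Sec61g was at 141 ± 4.45 TPM (SD, n = 5) and 133 ± 21.8 TPM (SD, n = 7), with the tightest control libraries of the 9 genes.

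The signal peptidase subunits Spcs1 and Spcs2 act in one complex, but their levels across the ablated libraries were not alike in spread. Spcs1 was at 119, 55.4, 73.9, 102 and 93.9 TPM in control, and in ablated at 25.6, 84.7 and 168 TPM as the lowest, median and highest, a ratio of 6.55 from lowest to highest. It was below every control in ablated 1, 2 and 6 and above every control in ablated 4, 5 and 7, and its log2 fold change was -0.16 (95% interval -1.17 to 0.86; limma adjusted p = 0.955). Spcs2 was at 77.6 ± 5.11 TPM (SD, n = 5) and 74.8 ± 17.4 TPM (SD, n = 7), where only ablated 1, at 38.5 TPM, stood apart. Of the exonic bases of Spcs1, 16.3% are shared with Glt8d1 on the opposite strand. Other genes also share 15.7% of the exonic bases of Hsp90b1, 12.8% of Ssr2, 9.25% of Manf and 8.16% of Sec61a1.

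The 6 genes of ER-associated degradation had 3 positive and 3 negative log2 fold changes, with a median of 0.03, and none passed. Derl2, a channel-like protein that helps move misfolded protein out of the ER, had the smallest p of them. It was at 39.2, 36.7, 34.0, 35.9 and 31.5 TPM in control and at 26.4, 32.2 and 34.9 TPM as the lowest, median and highest of ablated, a log2 fold change of -0.17 (95% interval -0.37 to 0.04; limma adjusted p = 0.542). Herpud1, a stress-induced membrane protein that brings the degradation complex together, was the most abundant, at 129, 118, 115, 142 and 138 TPM in control and at 116, 139 and 182 TPM as the lowest, median and highest of ablated. Its log2 fold change was 0.13 (95% interval -0.14 to 0.39; limma adjusted p = 0.781). Sel1l, the adaptor of the ubiquitin ligase HRD1, was among the steadiest of the 42 genes. It was at 35.3, 36.3, 30.9, 34.0 and 29.6 TPM in control and at 30.5, 35.5 and 38.7 TPM as the lowest, median and highest of ablated, with a log2 fold change of 0.06 (95% interval -0.14 to 0.27; limma adjusted p = 0.890). Syvn1, which encodes HRD1, was at 30.2 ± 3.55 TPM (SD, n = 5) and 30.2 ± 4.40 TPM (SD, n = 7). Edem1, which directs misfolded glycoproteins to degradation, and Derl1, a relative of Derl2, had log2 fold changes of -0.01 and 0.09.

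**Figure D3:**
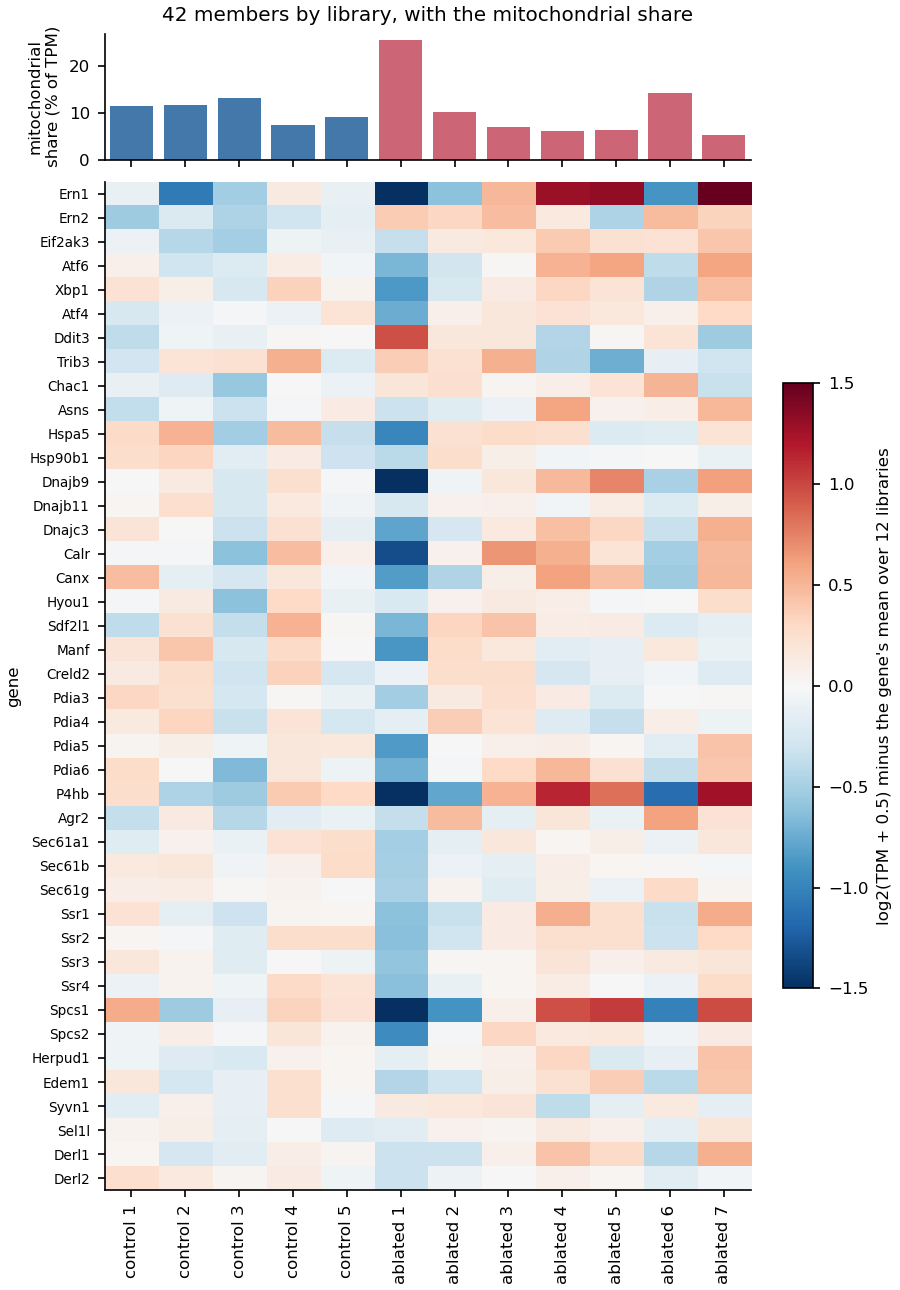
Each of the 42 genes by library, as log2(TPM + 0.5) minus the gene's mean over the 12 libraries, with colours ending at 1.5 on both sides; the bars above give the share of TPM from genes of the mitochondrial genome. Ablated 1, at 25.6%, is the lowest library for 28 of the 42 genes and for 36.0% of all genes tested, and ablated 7, at 5.20%, is the highest for 13 of the 42 and for 12.8% of all genes tested.

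Many of the 42 genes were low in the libraries where the mitochondrial share was high. Genes of the mitochondrial genome held 7.44 to 13.3% of TPM in control and 5.20 to 25.6% in ablated, with group means of 10.6 and 10.7%. Across the 12 libraries Pearson's r with that share was negative for 37 of the 42 genes (88.1%), beside 62.7% of all genes tested, and under -0.7 for 21 (50%), beside 25.7% of all genes. A higher mitochondrial share by itself leaves less TPM to other genes. With TPM rescaled without the mitochondrial genes, r was under -0.7 for 16 of the 42 (38.1%), beside 14.9% of all genes tested. Of the 42 relations, 25 negative ones and 1 positive one had a permutation p of Pearson's r under 0.05 after adjustment over the 42 (100000 resamples). That test was not run over all genes tested, so these counts have no share of all genes to be set against. All 25 negative relations kept their sign without ablated 1 and ablated 6, the libraries farthest from the median share. Without these libraries r was under -0.5 for 21 of the 25, and it was only -0.20 for Hspa5 and -0.29 for Dnajb11. All 25 were also negative within the 7 ablated libraries, which still include ablated 1 and ablated 6. With the rescaled TPM r was negative for 31 of the 42 genes, and for 24 of these 25; it was 0.14 for Sel1l and -0.06 for Dnajb11. Genes outside the 42 spread in a like way. The first principal component of all genes tested, the main axis of difference between libraries, held 40.1% of the variance. It ran from 85.2 in ablated 1 to -45.9 in ablated 7. Chosen after their values were seen, the epithelial marker Cdh1 ran from 38.0 TPM in ablated 6 to 325 TPM in ablated 7. Rpn2, a translocation and glycosylation gene, ran from 15.1 TPM in ablated 1 to 110 TPM in ablated 7. What the mitochondrial share stands for in these libraries was not tested.

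The genes differed in how closely they followed that share. For Ern1 r was -0.84 (adjusted permutation p = 0.00014) and Spearman's rho -0.94 (adjusted permutation p = 0.00042), with r at -0.88 without the 2 farthest libraries. For P4hb r was -0.89 (adjusted permutation p = 0.00014) and rho -0.96 (adjusted permutation p = 0.00042), with r at -0.86 without them. Calr, with r at -0.95 and rho at -0.93 (adjusted permutation p = 0.00014 and 0.000525), and Dnajb9, with r at -0.96 and rho at -0.91 (adjusted permutation p = 0.00021 and 0.00091), followed it as closely, and r was -0.88 and -0.84 for these genes without the same libraries. For Spcs1 r was -0.83 and rho -0.85 (adjusted permutation p = 0.00141 and 0.00265), with r at -0.67 without them. The 1 positive relation was that of Ddit3, with r at 0.78 (adjusted permutation p = 0.0247) but rho at 0.52 (adjusted permutation p = 0.131); without ablated 1 and ablated 6 r was 0.20, so it rests on those libraries. Creld2, Pdia4 and Agr2 had r of -0.06, -0.02 and -0.26 (adjusted permutation p = 0.906, 0.955 and 0.479) and rho of 0.10, 0.13 and -0.27 (adjusted permutation p = 0.808, 0.793 and 0.498). Ern2 had r of 0.17 and rho of 0.09 (adjusted permutation p = 0.688 and 0.821), with r at -0.51 without the 2 farthest libraries. Calr and Creld2 both hold the exact ER stress response element printed above, and they stood far apart in this order.

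**Figure D4:**
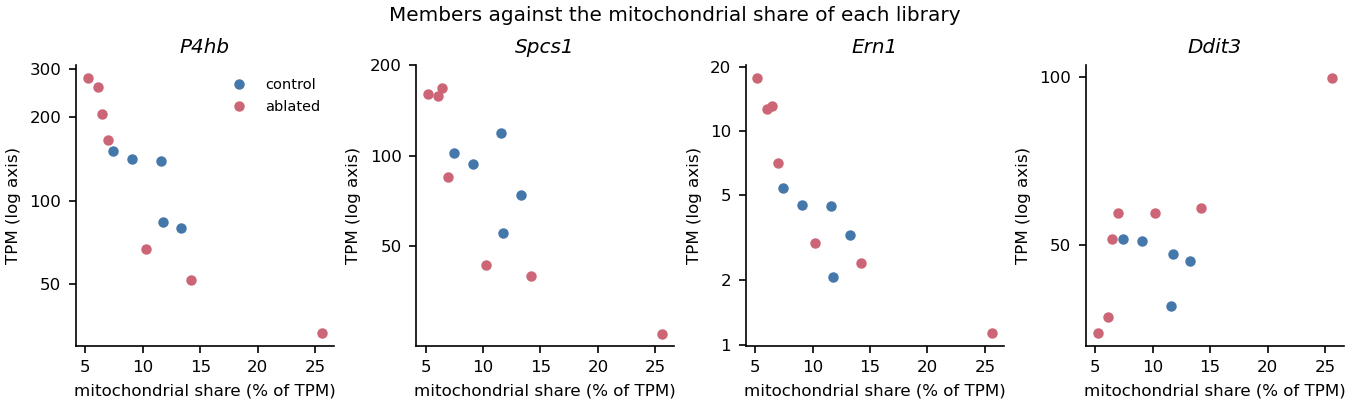
TPM (log axis) of P4hb, Spcs1, Ern1 and Ddit3 against the mitochondrial share of TPM in each of the 12 libraries, control in blue and ablated in red. The first 3 genes descend from left to right over the 12 libraries and within ablated, and Ddit3 climbs through the library at 25.6%. Within control Spcs1 does not descend steadily.

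Other genes of the same pathways, taken from lists of genes outside the 42, showed 1 call. Of 15 further regulators of the unfolded protein response and integrated stress response, 12 log2 fold changes were positive, the median was 0.08, and 1 gene rose. That gene was Creb3l3, a transcription factor that is cut out of the ER membrane like ATF6 and is known for its part in lipid metabolism of liver and intestine (chromosome 10, 81084324 to 81098874, minus strand). It was at 1.67, 3.14, 4.21, 4.50 and 3.33 TPM in control and at 7.10, 12.5 and 22.4 TPM as the lowest, median and highest of ablated. Every ablated library was above every control, as in 1.33% of all genes tested. The log2 fold change was 1.86 (95% interval 1.23 to 2.50; limma adjusted p = 0.00532), from means of 3.37 ± 1.11 TPM (SD, n = 5) to 14.1 ± 5.88 TPM (SD, n = 7).

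The other 4 lists held no call. Of 18 further targets of ATF4 or CHOP 12 were positive, with a median of 0.14. The smallest p were those of Nupr1, a small stress-induced chromatin protein, at 0.77 (limma adjusted p = 0.0705), and Stc2, a secreted glycoprotein, at 0.81 (limma adjusted p = 0.183). For Nupr1 every ablated library lay above every control, as in 1.33% of all genes tested. Of 20 further folding and oxidation genes 14 were positive, with a median of 0.10; the smallest p were those of Agr3, a relative of Agr2, at 0.48 (limma adjusted p = 0.552) and Uggt1, the folding sensor of glycoproteins, at 0.18 (limma adjusted p = 0.565). Of 16 translocation and glycosylation genes 6 were positive, with a median of -0.10, like the 9 translocon genes above. Tram1, which helps chains into the channel, was at -0.27 (limma adjusted p = 0.193) and Sec11c, a catalytic subunit of signal peptidase, at -0.30 (limma adjusted p = 0.236). For Sec11c every ablated library lay below every control, as in 1.55% of all genes tested. Of 13 degradation genes 7 were positive, with a median of 0.01; Derl3, a derlin of plasma cells and other secretory cells, was at -1.24 (limma adjusted p = 0.163), from 7.56 ± 2.13 TPM (SD, n = 5) to 3.33 ± 2.03 TPM (SD, n = 7), and Edem3, a mannosidase, at 0.27 (limma adjusted p = 0.589).

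Some markers of the secretory cells known for these genes passed the test. Of 12 goblet cell markers 4 rose and none fell (Sytl2, Zg16, Tff3 and Fcgbp). Of the 12 log2 fold changes 10 were positive and 2 negative, the lowest at -1.57. The sum of the 12 was 10138 to 14399 TPM in control and 17112 to 28572 TPM in ablated, with no overlap. Zg16 and Tff3 carried much of that sum, with means of 4413 and 2298 TPM in control and 11146 and 4910 TPM in ablated. The sum is thus not separate from the calls of these genes. Of 14 plasma cell markers 2 fell and none rose: Tnfrsf17, the receptor BCMA, with a log2 fold change of -1.01 (limma adjusted p = 0.0407) and Iglc3, a light chain constant gene, with -1.94 (limma adjusted p = 0.0476). Each library left out in turn ended the call of Fcgbp in 10 of 12 fits, of Iglc3 in 10 and of Tnfrsf17 in 9 (limma adjusted p of up to 0.164, 0.150 and 0.146), and of Sytl2, Zg16 and Tff3 in none. Of the 14 log2 fold changes of the plasma cell markers 2 were positive and 12 negative, with a median of -1.25. The plasma cell sum was 5533 to 12481 TPM in control and 1599 to 9031 TPM in ablated, which overlap. Igkc and Igha carried much of it, with means of 5172 and 2662 TPM in control and 2493 and 1330 TPM in ablated. Xbp1 and Derl3 are themselves in the plasma cell list. Of 16 markers of absorptive colonocytes and epithelium none rose or fell, at sums of 18907 to 23875 TPM and 18752 to 29701 TPM. None of the goblet, plasma cell or colonocyte markers was at 0 in a library. In the same libraries the 42 ER genes summed to ranges that overlap, as given above. The part of these cell types in the levels of the ER genes was not tested.

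**Figure D5:**
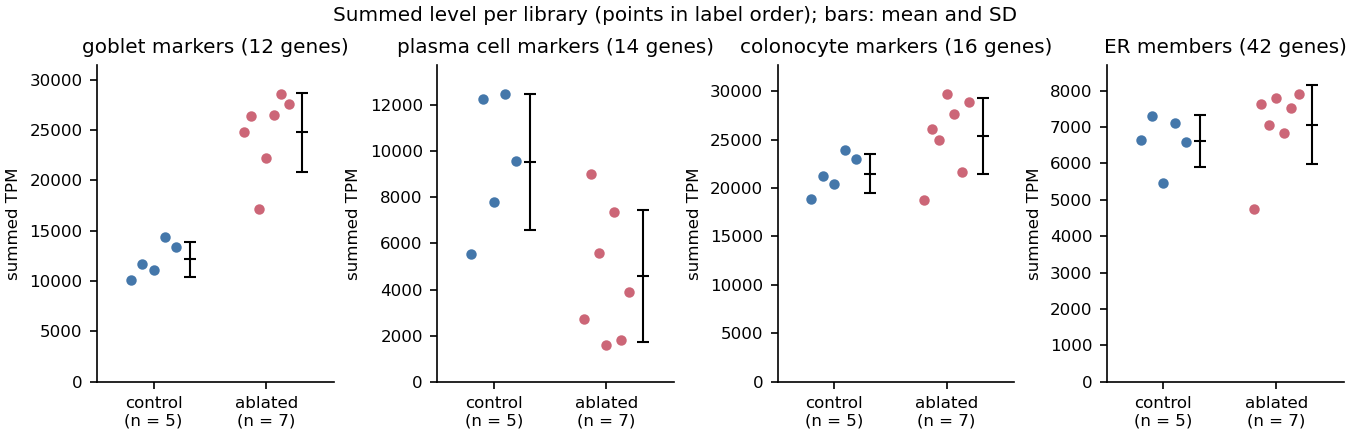
Summed TPM, from 0, of goblet cell, plasma cell and colonocyte markers and of the 42 ER genes in each library, with control (n = 5) in blue and ablated (n = 7) in red; bars give the mean and SD. The goblet sums, much of them from the called genes Zg16 and Tff3, do not overlap between groups, whereas the sums of the 42 genes do.

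In the authors' deposited table of their edgeR comparison, none of the 42 genes had a false discovery rate under 0.05, while 306 of all 27179 genes did (1.13%). An unadjusted p under 0.05 stood beside 3 of the 42 in the authors' deposited table, Ern2, Eif2ak3 and Derl2. The share of all genes under that p in the authors' deposited table was not computed. In the limma fit it was 11.8% of all genes tested, beside 4.76% of the 42. The authors' deposited table gives Ern2 a log2 fold change of 0.56 with a false discovery rate of 0.134, Eif2ak3 0.41 with 0.217, and Derl2 -0.21 with 0.515. For Creb3l3 the authors' deposited table gives 2.04 with a false discovery rate of 0.00559.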

How the data were processed

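Polyadenylated RNA from 12 pieces of mouse colon was made into directional libraries, per the labels' protocols. Per the submitters' processing notes, bcl2fastq 2.17, HISAT and featureCounts were used with mm10, with no version for the last 2 tools. The authors deposited TPM per gene for each library; the 12 files of single libraries equal the table of the series. The authors' deposited edgeR table holds per gene a p-value, a false discovery rate, a score (its F), a mean log2 CPM and a log2 fold change; its filter and design are not stated, and it is used only to check the recovered reads and in the comparison that closes the results.

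The members and all gene lists were chosen with earlier results of these data known. Of 27179 genes, the 16164 that reached 0.5 TPM in 5 or more libraries entered a limma model (version 3.58.1, R 4.3.3) of log2(TPM + 0.5), with eBayes moderation along a mean trend. Contrasts are ablated minus control and two-sided, with Benjamini-Hochberg adjustment over all genes tested and a threshold of 0.05. This scale understates the change of low genes. The script was tested on simulated data. Reads were recovered from the TPM for all 22842 genes above 0 (tolerance 0.05 of a read); their mean log2 CPM had r = 0.9999 with that of the authors over 14798 genes. They give depth and read numbers, and were used in voom as an alternative. Ratios and correlations used SciPy 1.17.1, numpy 2.4.6 and pandas 2.3.3 in Python 3.11.15, and figures matplotlib 3.10.9. Gene positions are from GENCODE on mm10.

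Each control library's value and the lowest, median and highest ablated value are given, in each role, for the gene with the smallest p and the 2 with the highest mean TPM; of the other lists up to 4 called genes, or up to 2 with the smallest p where none was called, are named. The alternatives were other pseudocounts, minimums, scalings, variance models, covariates (an epithelial score, the mitochondrial share), a replicate block, voom on recovered reads, and each library left out in turn. TPM rescaled without mitochondrial genes and a fit without ablated 1 and ablated 6 were added after seeing the data.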

Additional observations from a re-analysis of the deposited data

Results flagged for a closer look

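For each of the 42 genes and for both ratios, the highest and lowest library of each group were set against the rest of the group by Dixon's criterion. Of 88 groups 6 had a library far from the others. In independent groups chance would give about 1 in 20, or 4.4. These groups share the same libraries, so 4.4 is no measure for the 6. Ern2 was low in ablated 5, at 47.65 TPM. Ablated 1 gave the other 5, as the low library for Eif2ak3 at 10.93 TPM, Atf4 at 75.89 TPM, Ssr3 at 92.27 TPM and Spcs2 at 38.53 TPM, and as the high library for Ddit3 at 99.51 TPM. Ablated 1 was also the shallowest library and the one of highest mitochondrial share (25.6% of TPM), and the part of either in these values was not tested. No control library stood apart in this way.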

How the results depend on the processing

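Over 27 alternatives the number of the 42 genes called lower stayed at 0. The number called higher was 1 with a weight per library (Eif2ak3), with the mitochondrial share as a covariate (Eif2ak3) and with an epithelial score as a covariate (Ern2), and 0 to 1 with each library left out in turn; the cause was not tested. Of 1134 gene values under the alternatives 5 were called. The sign of the log2 fold change was the same under all alternatives for 15 of the 42 genes, and 27 changed sign under at least 1, called under neither setting. The median over the 42 genes was -0.11 to 0.08 with each library left out, 0.14 with a weight per library and 0.145 without ablated 1 and ablated 6. Over all genes tested the median was 0.0602 with a weight per library and 0.0848 without ablated 1 and ablated 6. The difference in the ratio of Ern2 to Ern1 was -0.35 to 0.29 with each library left out, and that of Agr2 to P4hb 0.02 to 0.49. For the other pathway genes (1 higher, 0 lower) the counts were 7 higher and 3 lower with a weight per library, 3 and 1 with the epithelial score, 4 and 3 with the mitochondrial share, 2 higher without ablated 1 and ablated 6, and 1 to 3 higher with each library left out. For the cell type markers (5 higher, 16 lower) they were 11 higher and 27 lower with a weight per library, 9 higher with either covariate, and 4 to 7 higher and 11 to 18 lower with each library left out. All genes called went from 68 higher and 163 lower to 654 and 438 with a weight per library, 318 and 356 with the epithelial score and 334 and 359 with the mitochondrial share.

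No label says whether libraries of the same number in both groups pair. The correlations of their deviations were 0.01, 0.36, -0.27, 0.20 and 0.16 for numbers 1 to 5, which cannot decide it. With the number as a replicate block 0 of the 42 genes were called, 0 other pathway genes and 1 marker were higher, Creb3l3 was at 1.75 (limma adjusted p = 0.133), and all genes called were 15 higher and 69 lower. Trib3 and Chac1 rested on the fewest reads, 10 to 47 per library.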

Other observations

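PERK is 1 of the kinases that act on the translation factor eIF2α, and the other kinases, named after their values were seen, gave the following levels. Eif2ak2, the kinase PKR that answers to double-stranded RNA, was at 18.7 ± 2.30 TPM in control (SD, n = 5) and 26.7 ± 4.95 TPM in ablated (SD, n = 7). Every ablated library lay above every control, as in 1.33% of all genes tested. With a log2 fold change of 0.49 Eif2ak2 did not pass (limma adjusted p = 0.104). Eif2ak4, the amino acid sensor GCN2, was at 6.94 ± 0.598 and 8.71 ± 1.36 TPM, with 6 of 7 ablated libraries above all controls and a log2 fold change of 0.30 (limma adjusted p = 0.353). Eif2ak1, the haem-regulated kinase, was at 40.5 ± 4.01 and 44.7 ± 16.2 TPM, with a log2 fold change of 0.06 (limma adjusted p = 0.965).

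Among the other cell type markers, 2 enteroendocrine genes of 9 passed in opposite directions. Tph1, the enzyme of serotonin synthesis in these cells, rose from 5.95 ± 1.11 to 11.7 ± 1.64 TPM (limma adjusted p = 0.00407), and Scgn, the calcium sensor secretagogin, fell from 9.12 ± 2.71 to 4.01 ± 1.23 TPM (limma adjusted p = 0.0260). With each library left out in turn Tph1 kept its call, and Scgn lost it without control 2, 3, 4 or 5 or ablated 6 or 7 (limma adjusted p of up to 0.120). No marker of tuft cells (8 tested), smooth muscle (10), fibroblasts (10), enteric glia (10) or macrophages (11) passed. In these lists 5 glial markers (50%) and 1 fibroblast marker (10%) had an unadjusted p under 0.05, beside 11.8% of all genes tested. Of the 10 glial log2 fold changes 9 were negative, with a median of -0.63. The smallest limma adjusted p among the glial markers was 0.0536.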
